A study of Mus musculus with 4 samples.

Results

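The genes described here are the protein-coding histone genes of the mouse clusters Hist1, Hist2, Hist3 and Hist4, taken by their GENCODE M21 names. The annotation holds 67 of them, and 64 of the 43629 counted genes were members. Hist1h2bm, Hist1h2bh and Hist2h2bb were not analysed here, and 3 histone pseudogenes were left out. By protein, 6 members encode linker histone H1, 18 H2A, 15 H2B, 12 H3 and 13 H4. By place, 52 lie in Hist1 on chromosome 13, 9 in Hist2 on chromosome 3, 2 in Hist3 on chromosome 11 and 1, Hist4h4, on chromosome 6.

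Poly(A) RNA was sequenced from mouse embryonic stem cells of 129/Ola background, derived from blastocysts and kept in serum with LIF, the cytokine that holds such cells undifferentiated. Drosha, the nuclear RNase that makes the first cut in microRNA precursors, had been knocked out with paired CRISPR/Cas9 cuts in 2 libraries. KO1 lacks the proline-rich region of the protein and KO2 the arginine/serine-rich region. Both are at passage 7, each with a d5 in the title that the labels leave unexplained. The 2 wild-type libraries are labelled as re-used samples, WT1 at passage 33 and WT2 at passage 42, and none of the 4 carries another allele or agent in its labels. The 2 members of each group are thus 2 deletion alleles or 2 passages, and genotype, passage and sample origin cannot be told apart. Where 4 values stand together, their order is KO1, KO2, WT1, WT2.

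Replication-dependent histone genes supply the nucleosomes for newly made DNA, and their mRNAs are abundant in S phase. Most of these mRNAs carry no poly(A) tail. They end just past a short stem-loop, which is bound by the protein SLBP and cut downstream by a complex containing the U7 small nuclear RNA, although many cluster genes can also give polyadenylated transcripts. Libraries made from poly(A) RNA therefore see only part of these mRNAs, and a change in the total mRNA and a change in the part with a tail cannot be told apart here.

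The stem-loop was searched for in the annotated transcripts within 100 bases of the stop codon, as a perfectly paired 6-base stem ending in T around a 4-base loop of TTT and any base. It was found in 42 of the 64 genes, or 84% of the 50 with annotated sequence there, against 0.116% of 20637 other protein-coding genes. The sequences shown are those of the genes that passed the test between knockout and wild type, of the most abundant member per kilobase in each class, and of Hist1h4b for a second H4 stem. Capitals mark the loop, and positions are those of build mm10.

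Hist1h4d (H4, passed the test; chr13:23581950-23581965, plus strand): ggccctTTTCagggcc
Hist1h3c (H3, passed the test and most abundant; chr13:23745047-23745062, minus strand): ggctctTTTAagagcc
Hist1h2bk (H2B, passed the test; chr13:22036300-22036315, plus strand): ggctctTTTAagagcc
Hist1h1c (H1, most abundant; chr13:23739512-23739527, plus strand): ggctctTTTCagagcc
Hist1h2ae (H2A, most abundant; chr13:23570668-23570683, minus strand): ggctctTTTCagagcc
Hist1h4i (H4, most abundant; chr13:22040966-22040981, minus strand): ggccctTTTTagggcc
Hist1h4b (H4, second stem; chr13:23757366-23757381, plus strand): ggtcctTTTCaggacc

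The stem divided the classes. All 31 stem-loops of H1, H2A, H2B and H3 genes had the stem ggctct, whereas 9 of the 11 in H4 genes had ggccct and the other two ggtcct. The loop varied less by class, with TTTC in 33 of the 42 genes. The stem-loop began 21 to 58 bases after the stop codon, with a median of 31.5. Hist1h2bc, the most abundant H2B gene, had no such sequence in its annotated transcripts.

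Drosha, which checks the labels, had 158 CPM (counts relative to the library total, adjusted by TMM factors), 158, 364 and 357, and fell (log2 fold change -1.19 ± 0.11 SE, edgeR adjusted p = 0.0482). Both deletions remove only part of the gene, so the remaining counts do not measure intact protein. Totals ran from 29264632 to 42322129 counts, and 17022 genes passed the expression filter. The wild-type libraries stood further apart than the knockout libraries, with a chi-square per degree of freedom over genes of 167 against 2.26. Embryonic stem cell markers summed to between 5569 and 6608 CPM in all 4 libraries, but single markers differed both ways. Of the 8, 4 were higher in both knockout libraries and 3 lower, against 30.1% and 26.9% of all genes with a count. At an edgeR adjusted p under 0.05, 1 rose and 0 fell, against 3.51% and 1.94% of all tested genes. The one was Utf1, with 304, 261, 82.8 and 48.4 CPM (log2 fold change 2.11 ± 0.31 SE, edgeR adjusted p = 0.0482). Of 8 fibroblast markers, 7 were higher in both knockout libraries, against 30.1% of all genes with a count. The 8 summed to 58.4 and 53.4 CPM against 39.9 and 32.4, mostly from Thy1 (40.8, 41.5, 31.5 and 25.9 CPM). Dcn, Lum and Postn had no wild-type count, and Col3a1 had 47, 14, 1 and 0 counts. Of 8 endoderm markers, 7 were lower, against 26.9% of all genes with a count, with 46.1 and 45.6 CPM against 178 and 280. The part of either cell type in the histone values was not tested.

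Histone cluster transcripts were scarce in every library. The 64 genes together had 824, 1078, 673 and 286 counts. Before TMM scaling these were 28.2 CPM (95% Wilson interval 26.3 to 30.1), 25.5 (24.0 to 27.0), 16.8 (15.5 to 18.1) and 7.21 (6.42 to 8.10), intervals that cover counting error only. Of the 64 genes, 5 had no count, 29 others stayed below 10 counts in every library, and 8 reached 10 in all of them. In both wild-type libraries 48 genes were below 10 counts, and in both knockout libraries 36 were.

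The summed level of the 64 genes was higher in both knockout libraries. It was 26.7, 24.3, 16.9 and 7.94 CPM. The knockout mean of 25.5 ± 1.70 (SD, n = 2) was 2.06-fold the wild-type mean of 12.4 ± 6.30 (SD, n = 2), a log2 ratio of 1.04. The lowest knockout sum was 1.44-fold the highest wild-type sum, so the groups did not overlap. With the wild-type libraries this far apart, the size of the ratio depends on which is used, 0.60 on the log2 scale against WT1 alone and 1.68 against WT2 alone. A different share of cells in S phase and a different amount of RNA per cell cannot be told apart in such bulk samples.

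All 5 classes were higher in both knockout libraries, by unequal amounts. H4 genes summed to 5.15 and 3.81 CPM in the knockout libraries against 1.63 and 0.750 in the wild-type libraries, a log2 ratio of 1.91. H3 genes summed to 3.44 and 3.09 against 1.53 and 0.444, a log2 ratio of 1.73. In both classes KO2, the lower knockout library, lay above WT1, the higher wild-type library.

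The other classes differed less. H1 genes summed to 7.36 and 6.83 CPM in the knockout libraries against 4.91 and 2.53 in the wild-type libraries, a log2 ratio of 0.93. H2B genes summed to 8.46 and 8.88 against 7.14 and 3.14, a log2 ratio of 0.75. H2A genes summed to 2.30 and 1.69 against 1.65 and 1.08, a log2 ratio of 0.54, and KO2 lay only just above WT1. These sums carry no test, and differences between classes were not tested. Sums with the trends of GC content and exon length removed cover the tested genes only, so the gene sets differ from those above. In these sums H2A, with 2 tested genes, did not separate the groups (log2 ratio 0.07), and the other classes did. Whether the trends or the smaller set made the difference in H2A was not tested.

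**Figure D1:**
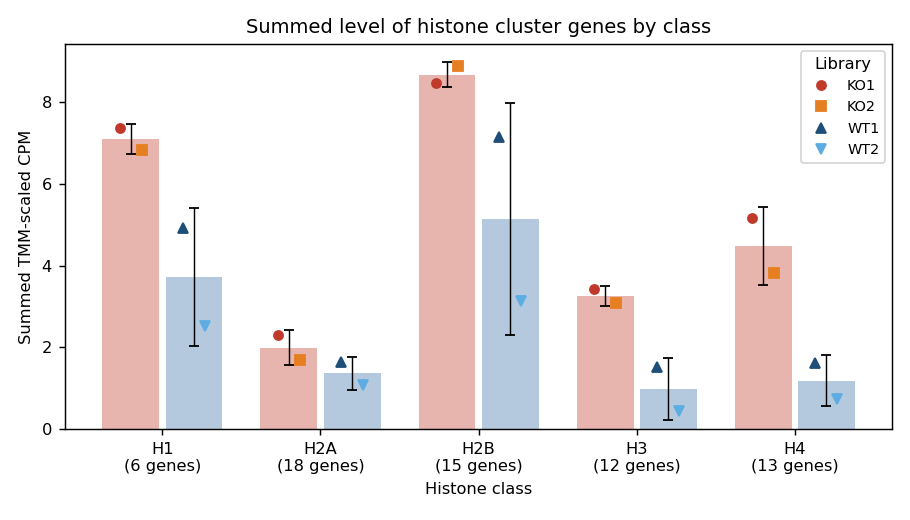
Summed TMM-scaled CPM of the histone cluster genes of each class (vertical axis), with points for the 4 libraries, bars for the mean of the 2 libraries of a group and error bars for the SD. Knockout points lie above wild-type points in every class, from 3.81 and 5.15 against 0.750 and 1.63 in H4 to 1.69 and 2.30 against 1.08 and 1.65 in H2A.

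The Hist1 cluster held most of the counts and separated the groups, while the sums of Hist2 and Hist3 did not. Hist1 genes summed to 24.4 and 22.1 CPM in the knockout libraries against 13.6 and 6.47 in the wild-type libraries, a log2 ratio of 1.21. Hist2 genes had 34, 38, 73 and 26 counts in all, so that the groups overlapped (log2 ratio of CPM -0.38). Hist3, with Hist3h2a and Hist3h2ba, had 32, 51, 56 and 26 counts and also overlapped (0.04, and -0.10 with the trends of GC content and length taken out). Hist4h4, the only gene of its cluster, had 5, 7, 1 and 1 counts. Differences between clusters were not tested. Within Hist2, the H3 gene Hist2h3c2 had 24 counts in WT1, none in WT2, 6 in KO1 and 5 in KO2, and so carried much of the WT1 sum.

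Gene by gene, 36 of the 64 were higher in both knockout libraries than in both wild-type libraries, 1 was lower in both, Hist2h2be, and 27 overlapped. That is 61.0% of the 59 genes with a count, where 30.1% of all counted genes with a count were higher in this way and 26.9% lower. Of the 29 genes with counts that stayed below 10 throughout, 16 (55.2%) were higher in both knockout libraries, against 18.0% of all genes at such counts. By class the higher genes were 11 of 13 for H4, 9 of 12 for H3, 3 of 6 for H1, 6 of 15 for H2B and 7 of 18 for H2A. These totals include genes without a count, 3 in H2A, 1 in H2B and 1 in H3. The exceptions in H4 were Hist1h4j, with 4, 4, 4 and 6 counts, and Hist2h4, with 8, 3, 10 and 1.

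Of the 26 genes that passed the expression filter, 3 were higher in the knockout at an adjusted p under 0.05 in edgeR's quasi-likelihood test, where 3.51% of all 17022 tested genes were. These 3 were an H4, an H3 and an H2B gene. None was lower, against 1.94% of all tested genes. At an unadjusted p under 0.05, 13 were higher, where 19.4% of all genes were, and 0 lower, where 17.7% were. Of these 13, 11 had both wild-type counts below 10, so they passed the filter only through their knockout counts. The share of 13 in 26 therefore leans upward. DESeq2 called 4 higher and 0 lower of the 14 members to which it gave an adjusted p, against 12.9% and 11.1% of all its genes. The fourth was the H1 gene Hist1h1d.

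Hist1h4d (ENSMUSG00000061482; chr13:23581598-23582735, plus strand, single exon) encodes H4, which pairs with H3 in the nucleosome core. It had 25, 31, 3 and 4 counts, or 0.755 ± 0.08 against 0.093 ± 0.03 CPM (SD, n = 2). Its level rose with a log2 fold change of 2.98 ± 0.44 (SE, edgeR adjusted p = 0.0482). Both knockout libraries were far above both wild-type libraries, whose counts were below 10.

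Hist1h3c (ENSMUSG00000069310; chr13:23744973-23745602, minus strand, single exon) encodes H3, whose tail carries many of the chromatin marks. It had 33, 41, 4 and 5 counts, or 0.997 ± 0.10 against 0.120 ± 0.03 CPM (SD, n = 2), and rose by a log2 fold change of 3.03 ± 0.41 (SE, edgeR adjusted p = 0.0482). Hist1h2bk (ENSMUSG00000062727; chr13:22035870-22036345, plus strand, single exon) encodes H2B, the partner of H2A. It had 25, 40, 4 and 2 counts, or 0.856 ± 0.06 against 0.078 ± 0.03 CPM (SD, n = 2), and rose by 3.39 ± 0.46 (SE, edgeR adjusted p = 0.0482). In Hist1h2bk, 25.8% of its 50-base stretches occur in no other gene, against 53.0% in Hist1h3c and 89.8% in Hist1h4d, so its counts depend most on how shared reads were assigned.

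The adjusted p of these 3 genes, 0.0482, was the smallest in the whole comparison, but genes with smaller unadjusted p shared it. Drosha, for one, had an unadjusted p of 0.000325 in edgeR, against 0.0013 to 0.0019 for the 3. With every other call, the 3 calls were lost under library totals alone, under upper-quartile scaling, and once GC and length trends were removed. With the trends removed, the log2 fold changes were 3.14 for Hist1h4d, 2.33 for Hist1h3c and 2.34 for Hist1h2bk. No member was called without KO1, where 0 of 17758 genes were called in either direction, or without KO2, where 22 of 17559 (0.125%) were. Of the members tested in each fit, 24 of 30 were called higher without WT1 (background 39.6%), and 18 of 32 without WT2 (34.8%). Without WT2, Hist2h2be and Hist2h3c2 were also called lower (33.3% of all genes).

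**Figure D2:**
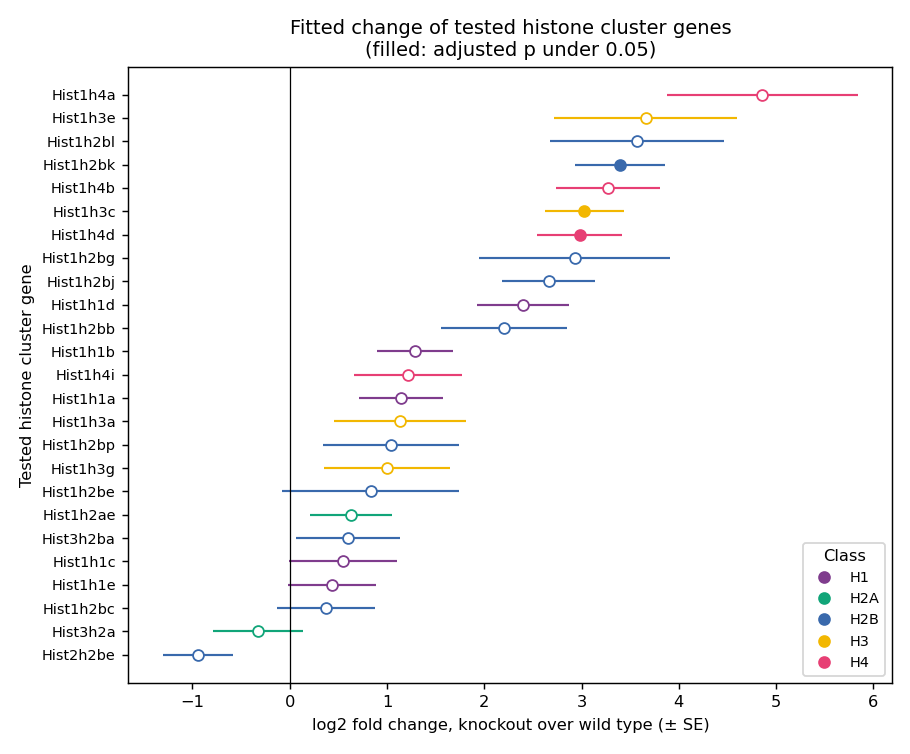
Fitted log2 fold change, knockout over wild type (horizontal axis, bars for ± SE), of 25 of the 26 tested histone cluster genes, coloured by class; Hist1h3i, without a wild-type count, is left out. Filled points mark Hist1h2bk, Hist1h3c and Hist1h4d, the 3 genes past the adjusted p of 0.05, and Hist3h2a and Hist2h2be lie below 0.

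Members passed the filter in different ways. In 12 of the 26 tested genes both wild-type counts were below 10, so these were tested only through their knockout counts, and all 3 called genes were among them. A median over tested genes leans upward for that reason. It was 1.25 on the log2 scale, against -0.02 over all tested genes, and 1.02 over the 18 members with a mean count of at least 10. In the 8 tested members with at least 10 counts in both wild-type libraries, 0 were called by edgeR (1 higher and 0 lower at an unadjusted p under 0.05) and 0 by DESeq2, and the log2 fold changes ran from -0.94 to 1.29. Their summed level was 13.3 and 12.0 CPM in the knockout libraries against 11.9 and 5.78 in the wild-type libraries, with KO2 barely above WT1.

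Linker histone genes, whose protein binds the DNA between nucleosomes, were among the best covered. Hist1h1c had 106, 132, 129 and 41 counts, so the groups overlapped (log2 fold change 0.55 ± 0.56 SE, edgeR adjusted p = 0.501, and -0.020 without WT2). Hist1h1a had 34, 66, 30 and 15 counts and was higher in both knockout libraries (1.14 ± 0.44, adjusted p = 0.142 in edgeR). Hist1h1d had 39, 43, 11 and 5 counts, the largest H1 difference, at 2.39 ± 0.47 (edgeR adjusted p = 0.0575). Hist1h1e, with 13, 12, 9 and 10 counts, had the smallest (0.44 ± 0.45, edgeR adjusted p = 0.508). Exons of Hist1h1e overlap those of the same-strand genes Hist1h2be and Gm11398 over 25.7% of their bases, so its counts are uncertain. None of the 5 tested H1 genes passed the edgeR threshold (2 were higher at an unadjusted p under 0.05, and DESeq2 called 1), and Hist1h1t, the testis form of H1, stayed below 10 counts with 2, 5, 4 and 1.

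H2A was hardly measurable: 16 of its 18 genes stayed below 10 counts in every library, 3 of them without any count. The 2 tested genes were Hist1h2ae, with 20, 19, 12 and 14 counts (log2 fold change 0.63 ± 0.42 SE, edgeR adjusted p = 0.33), and Hist3h2a, with 20, 23, 38 and 18 (-0.33 ± 0.46, edgeR adjusted p = 0.63, and 0.20 without WT1). The knockout libraries were above the wild-type ones in Hist1h2ae and not in Hist3h2a. Exons of Hist3h2a overlap those of the same-strand gene Trim17, so its counts are uncertain.

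H2B held the most abundant gene and had differences in both directions. Hist1h2bc had 131, 169, 178 and 63 counts, with the highest and the lowest level both in wild-type cells (log2 fold change 0.37 ± 0.50 SE, edgeR adjusted p = 0.616, and -0.15 without WT2). Hist2h2be had 12, 20, 37 and 25 counts, the only member lower in both knockout libraries (-0.94 ± 0.36, edgeR adjusted p = 0.144). Hist1h2bl, at the other end, had 11, 15, 2 and 0 counts, a pooled ratio of 13.1 with an exact 95% counting interval of 3.29 to 114 (edgeR adjusted p = 0.0745). Hist1h2bc and Hist1h1c together made up much of the wild-type signal. Without both, the summed level of the other 62 genes was 19.0 and 17.5 CPM in the knockout libraries against 9.17 and 5.05 in the wild-type libraries, a log2 ratio of 1.36.

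Among H3 genes, Hist1h3i had 8 counts in KO1, 11 in KO2 and none in either wild-type library. Set against a floor of 3 counts in each wild-type library, it was at least 3.20-fold higher in the knockout (edgeR adjusted p = 0.0575). Hist1h3g had 10, 18, 11 and 3 counts, the smallest difference of the 5 tested H3 genes (log2 fold change 1.00 ± 0.65 SE, edgeR adjusted p = 0.313). Both knockout libraries were above both wild-type libraries in all 5, but without the GC and length trends the log2 fold change turned negative in Hist1h3g (-0.38) and Hist1h3a (-0.13). Of the untested H3 genes, 6 stayed below 10 counts in every library, and Hist2h3c2 did not.

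H4, the class with the largest log2 ratio of its sum, had very low wild-type counts. Hist1h4a had 20, 14, 1 and 0 counts, a pooled ratio of 34.3 with an exact 95% counting interval of 5.76 to 1395 (edgeR adjusted p = 0.0582). Hist1h4b, with 12, 19, 2 and 1 counts, came just short of the threshold (log2 fold change 3.27 ± 0.54 SE, edgeR adjusted p = 0.0502). Hist1h4i, the most abundant H4 gene, had 54, 59, 38 and 13 counts, higher in both knockout libraries by 1.21 ± 0.55 (edgeR adjusted p = 0.189). Untested Hist1h4n had 8 counts in KO1, 4 in KO2 and none in wild type, at least 2.21-fold higher over the floor.

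**Figure D3:**
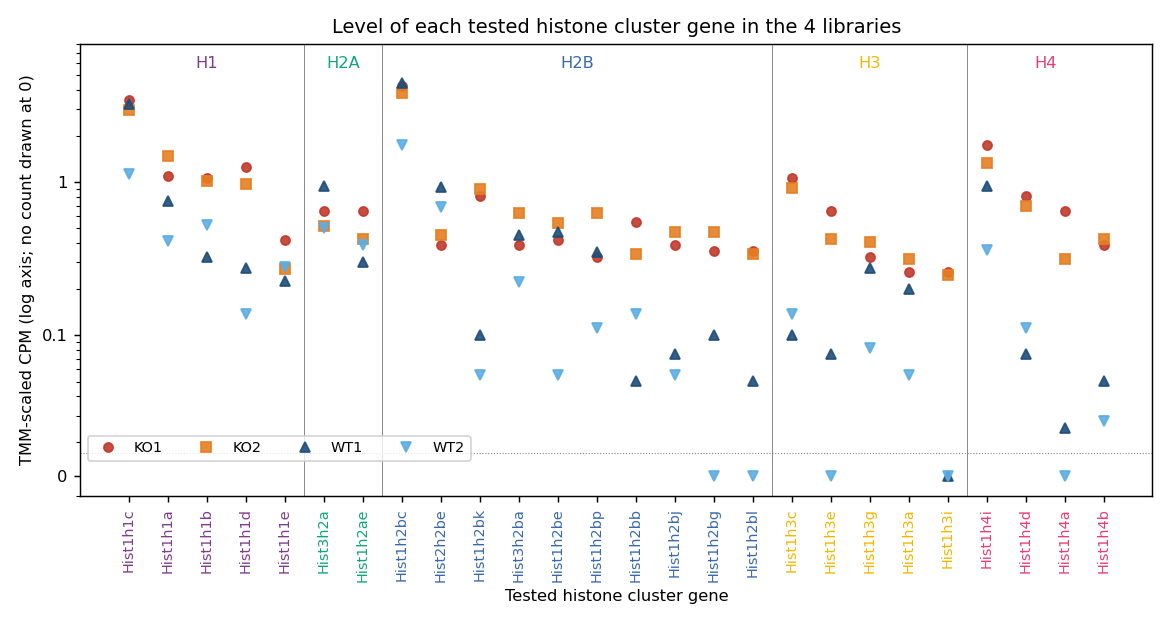
TMM-scaled CPM (log axis, with genes without a count drawn at 0 below the dotted line) of the 26 tested histone cluster genes in the 4 libraries, grouped by class. The knockout libraries lie close together, while WT1 was above WT2 in 19 of the 26 genes; Hist1h2bc and Hist1h1c are the highest, with WT1 level with the knockout libraries.

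The wild-type libraries also differed between themselves in these genes. WT1 was above WT2 in 33 of the 64 genes and below it in 18. In KO1 against KO2, 38 genes were higher and 21 lower, with summed levels of 26.7 and 24.3 CPM.

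The annotated transcript ends of the members differ, and the split used here was made after the counts had been seen. In 21 genes no annotated transcript that contains the stem-loop runs more than 100 bases past it. These summed to 5.48, 5.32, 1.28 and 0.694 CPM, a log2 ratio of 2.45, with 17 of 21 genes higher in both knockout libraries. One of them, Hist1h2bp, has a further annotated transcript that lacks the stem-loop and ends downstream of it. Without Hist1h2bp the sums were 5.15, 4.69, 0.927 and 0.583 CPM, a log2 ratio of 2.70. The 21 genes whose transcript with the stem-loop runs further summed to 11.9, 10.1, 8.37 and 3.64 CPM (log2 ratio 0.88, 9 of 21 higher). The 22 genes without a matching stem-loop summed to 9.30, 8.86, 7.21 and 3.61 CPM (0.75, 10 of 22 higher). Over all genes with a count, 30.1% were higher in both knockout libraries. The groups include 2, 1 and 2 genes without a count, in the order given. The differences between these groups were not tested. Hist1h3c and Hist1h2bk fall in the first group, and Hist1h4d, whose annotation runs 770 bases past its stem-loop, in the second.

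A poly(A) signal, AATAAA or ATTAAA in the last 40 bases of an annotated transcript on its own strand, was present in 17 members. These summed to 9.37, 8.59, 8.19 and 3.78 CPM (log2 ratio 0.59, 5 of 17 higher in both knockout libraries). The 47 genes without one summed to 17.3, 15.7, 8.67 and 4.17 CPM (1.36, 31 of 47 higher). Over all genes with a count, 30.1% were higher in this way, close to the share of the 17 genes (29.4%). The 17 include 2 genes without a count, and the 47 include 3. The 3 called genes were all among the 47. Without Hist1h2bc, which is one of them, the sums were 13.1, 11.9, 4.21 and 2.42 CPM, a log2 ratio of 1.92.

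**Figure D4:**
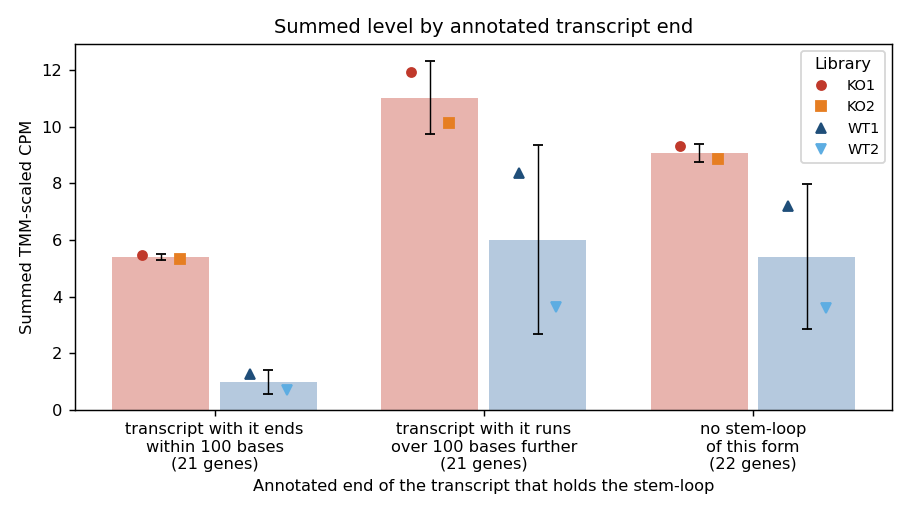
Summed TMM-scaled CPM (vertical axis) of histone cluster genes split by where the annotated transcript that holds the stem-loop ends, with points for libraries, bars for the mean of the 2 libraries of a group and error bars for the SD. The 21 genes whose transcript with the stem-loop ends within 100 bases of it, Hist1h2bp with a second, longer end included, have wild-type sums of 1.28 and 0.694 against 5.48 and 5.32 in the knockout libraries; in the other two sets WT1 lies much nearer to the knockout libraries.

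Histone genes resemble each other closely, and 33 of the 64 had under 50% of their 50-base stretches to themselves, 4 of them none. Over the other 31, the summed level still separated the groups (log2 ratio 0.85), and 2 of the 3 calls, Hist1h4d and Hist1h3c, were among them. Members were also shorter than most genes. Their median exon length was 555.5 bases over the 64 and 705 over the 26 tested, against 4351 for tested protein-coding genes. They were richer in GC, with a median of 58.6% over the 64 and 55.1% over the 26 tested, against 50.7%.

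Genes that transcribe histone genes or process their mRNAs were well measured. Of 24 tested, 4 fell and 0 rose past the edgeR threshold, against 1.94% and 3.51% of all genes. At an unadjusted p under 0.05 in edgeR, 11 were lower and 4 higher, against 17.7% and 19.4%. DESeq2 called 8 lower and 2 higher, against 11.1% and 12.9% of all its genes. The median log2 fold change of the 24 was -0.43 against -0.02 over all genes. Casp8ap2 (FLASH), a factor of the 3' end cleavage, had 75.0, 75.5, 154 and 212 CPM and fell (-1.28 ± 0.19 SE, edgeR adjusted p = 0.0482). Npat, the coactivator of histone gene transcription, fell from 111 and 140 CPM to 55.5 and 55.2 in the knockout (-1.18 ± 0.16, edgeR adjusted p = 0.0482). Pou2f1 (OCT1), which binds the octamer of H2B promoters, fell from 221 and 184 to 93.5 and 97.0 (-1.09 ± 0.15, edgeR adjusted p = 0.0482). The fourth, named after its value was seen, was the cleavage factor gene Cpsf2 (-0.84 ± 0.11, edgeR adjusted p = 0.0482).

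Slbp, the stem-loop binding protein, had 79.5, 80.8, 118 and 213 CPM. It was lower in both knockout libraries but did not pass the threshold (-1.05 ± 0.31, edgeR adjusted p = 0.0969). Lsm11, a protein of the U7 particle, had 528, 748, 559 and 588 counts (0.16 ± 0.17, edgeR adjusted p = 0.5). Once the GC and length trends were taken out no gene was called, and the log2 fold changes were -0.60 for Casp8ap2, -0.51 for Npat, -0.76 for Pou2f1 and -0.71 for Slbp, with a list median of -0.19.

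**Figure D5:**
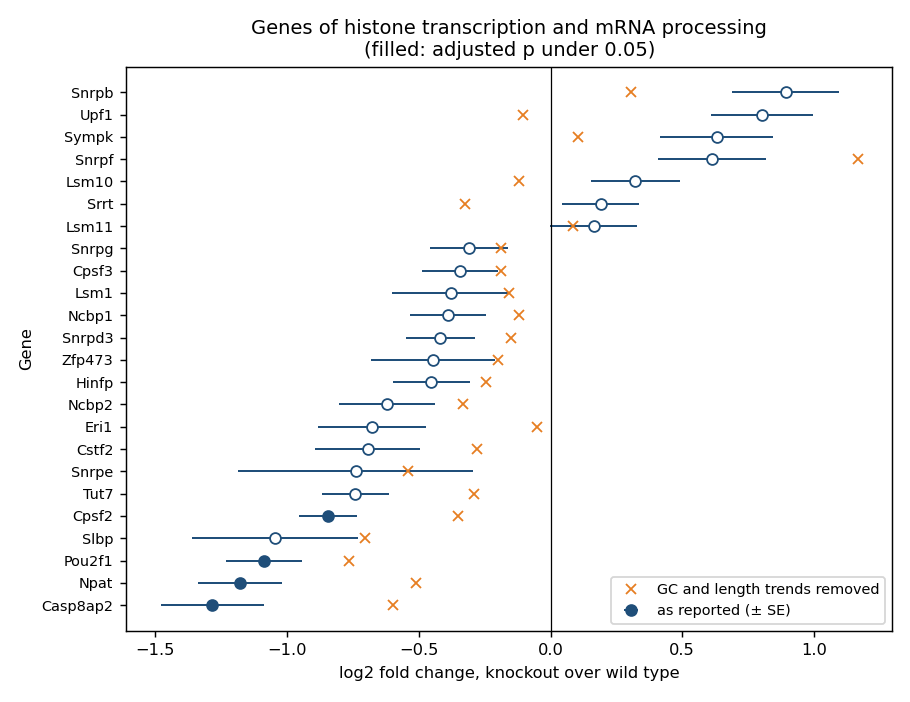
Log2 fold change, knockout over wild type (horizontal axis), of 24 genes of histone transcription and mRNA processing: circles with ± SE as fitted, filled past the adjusted p of 0.05, and crosses with GC and length trends removed. Casp8ap2, Npat, Pou2f1 and Cpsf2 are the filled ones, all below 0, and their crosses lie nearer to 0.

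Other gene groups were read beside the members. Of 12 histone genes outside the replication-dependent set, 11 were tested, with a median log2 fold change of 0.49. At an unadjusted p under 0.05 in edgeR, 4 were higher and 1 lower, against 19.4% and 17.7% of all genes. DESeq2 called 3 higher and 0 lower, against 12.9% and 11.1%. Past the edgeR threshold 1 rose and 0 fell, against 3.51% and 1.94%. The one, H1fx, a linker histone variant, had 515, 646, 104 and 42 counts (3.04 ± 0.45 SE, edgeR adjusted p = 0.0482). Without the GC and length trends its log2 fold change was 0.63 and the list median 0.22. H2afx, a variant gene that also carries the stem-loop, had 201, 182, 186 and 85.8 CPM, and was named after its values were seen.

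Of 42 DNA replication genes, 0 were called in either direction by edgeR, against 3.51% higher and 1.94% lower over all genes. At an unadjusted p under 0.05 in edgeR, 4 were higher and 12 lower, against 19.4% and 17.7%. DESeq2 called 3 higher and 10 lower, against 12.9% and 11.1%. The 42 genes had a median log2 fold change of -0.28. Those with the smallest p were Cdt1, which licenses origins (0.77 ± 0.13 SE, edgeR adjusted p = 0.0502), and Rfc1, the large subunit of the clamp loader (-0.68 ± 0.11, edgeR adjusted p = 0.0502). Without the GC and length trends Cdt1 turned direction, to -0.28, Rfc1 was at -0.30, and the list median was -0.16.

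Of 20 genes for RNAs that carry no poly(A) tail, other than histones, 8 were tested. In edgeR 1 rose and 0 fell, against 3.51% and 1.94% of all genes. At an unadjusted p under 0.05 in edgeR, 1 was higher and 1 lower, against 19.4% and 17.7%. DESeq2 called 1 higher and 0 lower, against 12.9% and 11.1%. The summed level of the 20 was 19.5, 21.5, 17.0 and 20.5 CPM, mostly from Snora73b (13.0, 12.7, 9.89 and 13.9 CPM). Of the 20, 4 were higher in both knockout libraries and 3 lower, against 30.1% and 26.9% of all genes with a count. No count was found for 3 of them. The one past the edgeR threshold was Rpph1, the RNA of RNase P, with 76, 135, 11 and 7 counts (3.53 ± 0.37 SE, edgeR adjusted p = 0.0482). Without the GC and length trends it was 1.57. The median log2 fold change of the 8 was -0.33, and -0.75 without these trends. The part of carried-over RNA without a tail in the histone values was not tested.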

How the data were processed

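The authors deposited read counts without normalisation, 1 column of Ensembl genes per sample. They used STAR 2.4.2a and featureCounts 1.4.5-p1 on mm10, per the submitters' processing notes. The kit was reverse-stranded TruSeq, per the labels. The annotation and the options for reads matching several genes are not given in the sources used, so counts of near-identical histone genes are uncertain. No count column belonged to another series.

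The test on these counts was that of edgeR 4.0.16, run in R 4.3.3 (TMM scaling, default filter with a minimum count of 10 and a minimum total of 15, quasi-likelihood fit of group, Benjamini-Hochberg adjustment over 17022 genes, threshold 0.05). DESeq2 1.42.0, other scalings, no filter, the replicate number as a block, removal of GC and length trends (lowess span 0.3) and leaving out each library were alternatives. Only the edgeR test as reported and DESeq2 were tried on simulated data. CPM are TMM-scaled. One count was worth 0.0236 to 0.0342 CPM, and a library at 0 allows up to 3 counts. Nothing says the libraries of a group are separate cultures, so p-values measure the spread between these samples.

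Stem-loops, lengths, GC content and shared 50-base stretches came from GENCODE M21 transcripts, and promoters from RefSeq (GRCm38.p6). Python 3.11.15 with pandas 2.3.3, numpy 2.4.6, scipy 1.17.1 and matplotlib 3.10.9 did the rest.

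The rule for names took every called member, in each class the 2 most abundant tested members per kilobase and those with the largest and smallest log2 fold change, up to 3 called genes a direction of each other list or else the 2 with the smallest p, and Slbp, Lsm11, Npat, Casp8ap2 and Drosha. Members outside it, such as Hist4h4, Hist2h3c2, Hist1h4j, Hist2h4, Hist1h1t and Hist1h4n, were chosen after their values were seen. The members, lists and rule were chosen with earlier results of these data known.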

Additional observations from a re-analysis of the deposited data

How the results depend on the processing

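The summed level stayed higher in the knockout under each alternative that gives a sum, which the replicate block and the DESeq2 test do not. Over the 64 genes, the log2 ratio was 1.02 to 1.16 under the other scalings and without the filter. It was 0.76 over the 26 tested genes with GC and length trends removed, and 1.36 over the 62 genes without Hist1h2bc and Hist1h1c. When a library was left out it was 0.60 to 1.68 (1.68 without WT1). With library totals alone the median over all genes moved from -0.02 to 0.13. The 3 higher calls became 0 with library totals alone, 0 with upper-quartile scaling, 0 with GC and length trends removed, 9 of 59 without the filter on low counts (median 1.80, background 6.09%) and 0 to 24 with a library left out, where the single library left in a group is taken to vary as the other pair does. The 0 lower calls became 0 to 2, and the median ran from 0.99 to 2.70. With the replicate number as a block, 6 members were called higher (background 7.95%). The differences between replicates 1 and 2 had a correlation of 0.0461 between knockout and wild type. The knockout libraries differed far less than the wild-type ones (chi-square per degree of freedom 2.26 against 167). The correlation therefore cannot show whether same-numbered libraries shared more than a number. The cause of these changes was not tested. DESeq2 size factors gave the same 3 calls. Direction turned in Hist1h3g (-0.38 with GC and length trends removed), and with a library left out in Hist1h1c (-0.020 without WT2 to 1.47 without WT1), Hist1h2bc (-0.15 without WT2 to 1.19 without WT1) and Hist3h2a (-0.72 without WT2 to 0.20 without WT1). Depth limits the members, since 34 of 64 never reached 10 counts.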

Other observations

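Promoters of 58 members were found in the RefSeq table (GRCm38.p6), from 250 bases before to 50 after the start, and 3 motifs were searched on both strands. TATAAA was present in 60.3% of them, against 15.7% of all 27025 promoters of the table. CCAAT was in 84.5% against 41.1%, that is in all promoters of H1, H2A, H2B and H3 genes and in 3 of 12 of H4 genes. The octamer ATTTGCAT, the site of OCT1, was in 20.7% against 1.97%: in 7 of 17 H2A and 5 of 13 H2B promoters and in none of the other classes. Each motif was counted by itself, whether or not its match shared bases with another, and a match is a description of the sequence, not of binding.

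The 3 histone pseudogenes that the rule left out were also counted. Hist1h2al had 6, 6, 0 and 1 counts. Hist1h2aj had 1, 3, 0 and 1, and Hist3h2bb-ps had 1, 1, 0 and 0.

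Besides H2afx, the stem-loop search met a histone gene in H2bfm, with 3, 2, 7 and 4 counts. Of the 24 protein-coding genes with a match, the others were not histone genes. Nanog, a transcription factor of embryonic stem cells, was among these, with 15147, 21679, 24576 and 25909 counts.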
